A study of Homo sapiens with 13 samples.

Results

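H3K27ac, an acetylated lysine of histone H3, marks active enhancers and active promoters, and H3K4me3 marks promoters. Acetylated regions without H3K4me3 are therefore often read as candidate enhancers, the elements that act on promoters from a distance and differ most between cell states. The regions described here are the H3K27ac peaks of ZNF263 knockout cells that overlapped no H3K27ac peak of wild-type cells and no H3K4me3 peak of either genotype, called KO-only distal peaks. They numbered 2735 of the 17571 H3K27ac peaks of the knockout, and of 136141 peaks in all 7 lists of the series. The cells were H1 (WA01), an established line of human embryonic stem cells. ZNF263 is a C2H2 zinc finger transcription factor, and the cells in question were a homozygous ZNF263 KO line of H1 labelled 1-10, made with Cas9, against wild-type (WT) H1. A further library came from the same KO line carrying ectopic ZNF263-FLAG, mapped with a FLAG antibody. Chromatin immunoprecipitation with sequencing (ChIP-seq) gave 1 library each for H3K27ac, H3K4me3 and H3K27me3 in KO and in WT cells, so no difference between genotypes has a replicate check and none was tested, and the KO is represented by 1 line. Of the 13 samples, the 2 libraries of endogenous ZNF263 and the 4 inputs were not used. Peak lists hold no expression, so neither the labelled cell type nor the loss of ZNF263 could be checked.

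The members were chosen from the values themselves, so their presence in KO and absence in WT is a description. The 2735 members made up 51.3% of the 5327 KO H3K27ac peaks off H3K4me3, while KO-only peaks made up 24.8% of the whole KO H3K27ac list. The WT list held 1983 WT-only distal peaks, 43.5% of its 4554 distal peaks, against 24.6% of the whole WT list. KO distal peaks shared with WT numbered 2592. KO-only peaks exceeded WT-only peaks away from H3K4me3, with a ratio of 1.38 (95% interval 1.30 to 1.46), and the opposite held on H3K4me3, where 1630 KO-only and 2327 WT-only H3K27ac peaks gave 0.700 (0.658 to 0.746). When only the upper 50% of a list by score was set against the complete other list, 141 KO-only and 49 WT-only distal peaks were left, a ratio of 2.88. Shared distal peaks also ranked higher in the KO list, so this cut keeps more KO than WT distal peaks of either kind. The strongest and second quartiles of the KO list held 378 and 757 shared distal peaks, against 263 and 665 in the WT list. All intervals cover the counting of peaks only. The lists give no read counts, so the depth of the libraries is unknown, and a region absent from a list may lie just under the caller's threshold. All positions refer to hg19 and start at base 1. Without an annotation of that build, the regions are given by position and not by gene, and a member may include promoters that lacked an H3K4me3 peak.

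Most members were narrow and weak. Their median width was 1320 bp (quartiles 1022 and 1642 bp), against 2030 bp for KO distal peaks shared with WT and 1325 bp for WT-only distal peaks, and together they covered 3.81 Mb. The authors gave each peak a score, whose scale no source used here states and which is described here within the KO list. The median score of the members was 53.3, against 97.5 for the shared distal peaks and 112 for the whole KO list, and the lowest in the list was 40. Of the 2735 members, 1174 lay under a score of 50, 220 reached 100 and 13 reached 200. The lowest H3K4me3 score and the lowest FLAG score were 50. The absence of those marks was thus judged from lists with another lowest score than H3K27ac. By quartiles of the KO list, strongest first, the members numbered 4, 137, 803 and 1791.

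The edges of the rule show how close some members came to being shared. The member nearest to a WT H3K27ac peak, at chromosome 17, 58458924 to 58460423, lay 0.003 kb from it, and the next, at chromosome 8, 76220626 to 76221980, lay 0.030 kb away. The third, at chromosome X, 33122705 to 33123471, lay 0.033 kb away. On the side of H3K4me3, the nearest member was at chromosome 5, 110466298 to 110467736, with a gap of 0.004 kb. Just outside the rule, the KO distal peak at chromosome 8, 30293338 to 30294734, overlapped a WT peak by 5 bp, and those at chromosome 8, 91692255 to 91694303, and chromosome 6, 79757864 to 79758678, by 43 and 48 bp. Such cases were few. Only 108 members (3.95%) had a WT H3K27ac peak within 1 kb, and 788 (28.8%) had one within 12500 bp. The median gap to WT H3K27ac was 34.4 kb, and 692 members (25.3%) had no WT H3K27ac peak within 100 kb. These distances were near the spacing of the KO list itself. The median gap from a member to another KO H3K27ac peak was 31.6 kb, and 22.9% had none within 100 kb. Of the WT-only distal peaks, 20.3% had no KO H3K27ac peak within 100 kb.

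The 25 members with the largest scores lay on 12 chromosomes, with 4 on chromosome 3 and 3 each on chromosomes 1, 12 and X. Their scores ran from 523 to 179, ranks 1903 to 6145 in the KO list, and their widths from 1698 to 4623 bp with a median of 2333 bp. None overlapped a FLAG peak or an H3K27me3 peak of either genotype. Over all members these shares were only 0.914% for FLAG, 0.110% for KO H3K27me3 and 0.0366% for WT H3K27me3. With shares so low, their absence from 25 regions is not a result about the strongest members. The gap to the nearest WT H3K27ac peak ran from 1.63 to 885 kb with a median of 55.1 kb. Of the 25, 19 lay more than 12500 bp from any, and so did 71.2% of all members. The strongest, at chromosome 6, 126501113 to 126504792, was 3680 bp wide with a score of 523, and the nearest KO H3K27ac peak of any kind was 71.4 kb away. It stood apart from the next, which scored 307.

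Of these 25 regions, 6 lay more than 100 kb from any WT H3K27ac, a share near the 25.3% of all members. The most remote was at chromosome 9, 25395806 to 25398924 (score 232), 885 kb from WT H3K27ac and 190 kb from any H3K4me3. The region at chromosome 13, 70997749 to 70999460 (score 182), was 620 kb from WT H3K27ac, but had a second KO-only distal peak 6.49 kb away. At chromosome 1, 230152922 to 230155177, the gap was 300.001 kb, and at chromosome 6, 133375789 to 133377690, it was 233 kb. The last of the 6 were at chromosome 3, 160700275 to 160702872 (score 196.5), and at chromosome 8, 40770857 to 40773189 (score 235), where an H3K4me3 region lay 14.8 kb away. By this choice, no WT H3K27ac peak flanked these 6 within 100 kb on either side.

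Another 6 of the 25 had WT H3K27ac within 12500 bp. The region at chromosome 11, 33153200 to 33157822, was the widest of the 25 at 4623 bp with a score of 292, and lay 2.96 kb from WT H3K27ac. The region at chromosome 12, 30031835 to 30033855, was 1.63 kb from it, and that at chromosome 12, 119655616 to 119658956 (score 307), 8.38 kb. The others were at chromosome 3, 112032932 to 112034798 and 79281887 to 79283959, and at chromosome 10, 17255544 to 17257648. In 5 of these 6, a KO H3K27ac peak shared with WT also lay within 12500 bp, so a KO-only site stood beside one that both genotypes had.

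The remaining 13 lay between 12500 bp and 100 kb from WT H3K27ac. Chromosome X carried 3 of them, at 10512502 to 10515242 (score 264), 154047325 to 154050786 (score 214) and 50463993 to 50465863 (score 191). Chromosome 16 held a pair, at 63747881 to 63749578 (score 218) and 13203379 to 13205390 (score 200.3). A FLAG peak lay 9.84 kb from the one that starts at 63747881. The only other of the 25 with a FLAG peak within 10 kb was at chromosome 3, 145973919 to 145976102 (score 198), 4.33 kb from it and 4.27 kb from H3K4me3. Chromosome 1 held a further pair, at 117634697 to 117637090 (score 248) and 242610104 to 242612449 (score 194), and chromosomes 11 and 12 one region each, at 131713250 to 131716987 (score 220.05) and 38936474 to 38939064 (score 211). At chromosome 20, a region from 59302879 to 59305189 was 462 kb from any H3K4me3, the largest such gap among the 25. At chromosome 9, 80199345 to 80201820 (score 255), the nearest WT H3K27ac peak was 48.4 kb away, at 80147639 to 80150994. That WT peak was itself WT-only and distal and had the third largest score of its kind, so each list had a strong distal peak where the other list had none.

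**Figure D1:**
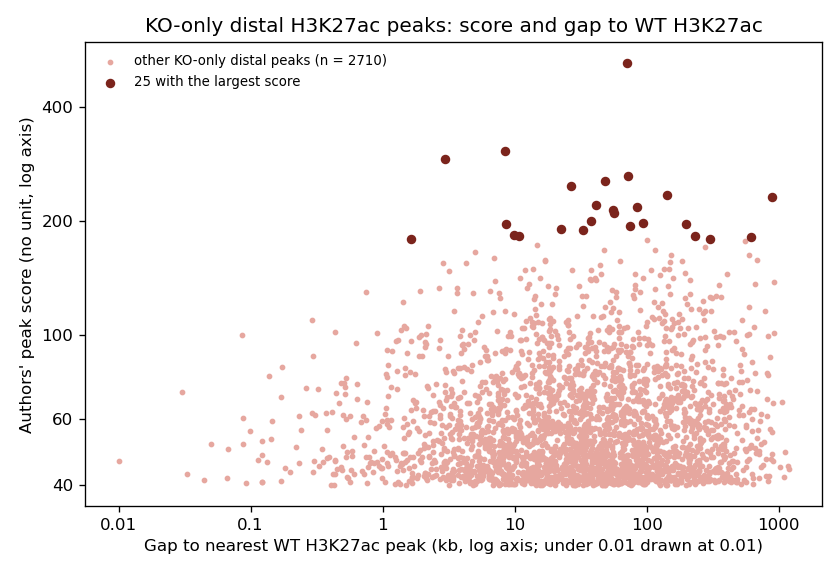
Authors' peak score (log axis) against the gap to the nearest WT H3K27ac peak in kb (log axis) for the 2735 KO-only distal peaks, with the 25 largest scores dark. Weak peaks occur over the whole range of gaps, and the 25 strongest lie between 1.63 and 885 kb from WT H3K27ac.

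The widest members were in part the strongest. Of the 10 widest members, 3 were also among the 25 strongest, those at chromosome 11, 33153200 to 33157822 and 131713250 to 131716987, and at chromosome 6, 126501113 to 126504792. The widest, at chromosome 6, 57411499 to 57416244, measured 4746 bp with a score of only 57.7. Another of the 10 lay close by on chromosome 6, at 57392165 to 57395829, with a score of 45.1. A second pair stood on chromosome 17, at 44176910 to 44181581 (4672 bp, score 122) and 44203080 to 44207710 (4631 bp, score 44.9). The remaining 3 were at chromosome 8, 18411192 to 18415564, chromosome 22, 36745806 to 36749700, and chromosome 15, 65041031 to 65044873.

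KO-only distal peaks were mostly solitary. When members up to 12500 bp apart were stitched, the 2735 peaks fell into 2608 groups, of which 2493 held a single peak, 106 held 2, 6 held 3 and 3 held 4. Stitched groups of more than 1 peak held 8.85% (7.84 to 9.97) of KO-only distal peaks, 12.6% (11.4 to 13.9) of shared KO distal peaks and 6.56% (5.55 to 7.73) of WT-only distal peaks. The sets differ in number, and a larger set lies closer together, so these shares are descriptions. No member in the upper 50% of the KO list by score lay within 12500 bp of another such member. The median distance from a member to the next was 227 kb, against 337 kb among the fewer WT-only distal peaks.

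The fullest clusters were short runs of weak peaks. The first, at chromosome 11, 10269855 to 10280443, held 4 peaks in 10589 bp with scores of 97.7, 89.0, 42.1 and 79.3 in order of position, and the nearest WT H3K27ac was 17.2 kb away. The second, at chromosome 4, 26378623 to 26405519, spread 4 peaks over 26897 bp, with scores of 49.1, 55.6, 73.1 and 102, and ended 0.360 kb before a KO H3K27ac peak shared with WT. The third, at chromosome 4, 79122183 to 79151683, had 4 peaks with scores of 42.3 to 48.0 on both sides of an H3K4me3 region, and no H3K27ac peak shared with WT within 21.1 kb.

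Clusters of 3 peaks often flanked a shared region. On chromosome 6, the 3 peaks at 56617973 to 56624979 began 0.063 kb from a shared KO peak, and the 3 at 168255445 to 168259753 lay 1.18 kb from another. The cluster at chromosome 6, 114706670 to 114731993, had a shared peak inside it. At chromosome 8, 73942561 to 73952962, the shared peak was 0.598 kb away, and at chromosome 5, 74121476 to 74132982, 5.44 kb. The cluster at chromosome 7, 110497263 to 110512720, was different, with WT H3K27ac 72.1 kb away and a FLAG peak no nearer than 1001 kb. In all, 6 of the 9 clusters with 3 or more peaks had another KO H3K27ac peak inside or within 20 kb, and 7 had a WT H3K27ac peak. The tenth by number was the pair at chromosome 11, 33153200 to 33165287, which included the third strongest member.

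**Figure D2:**
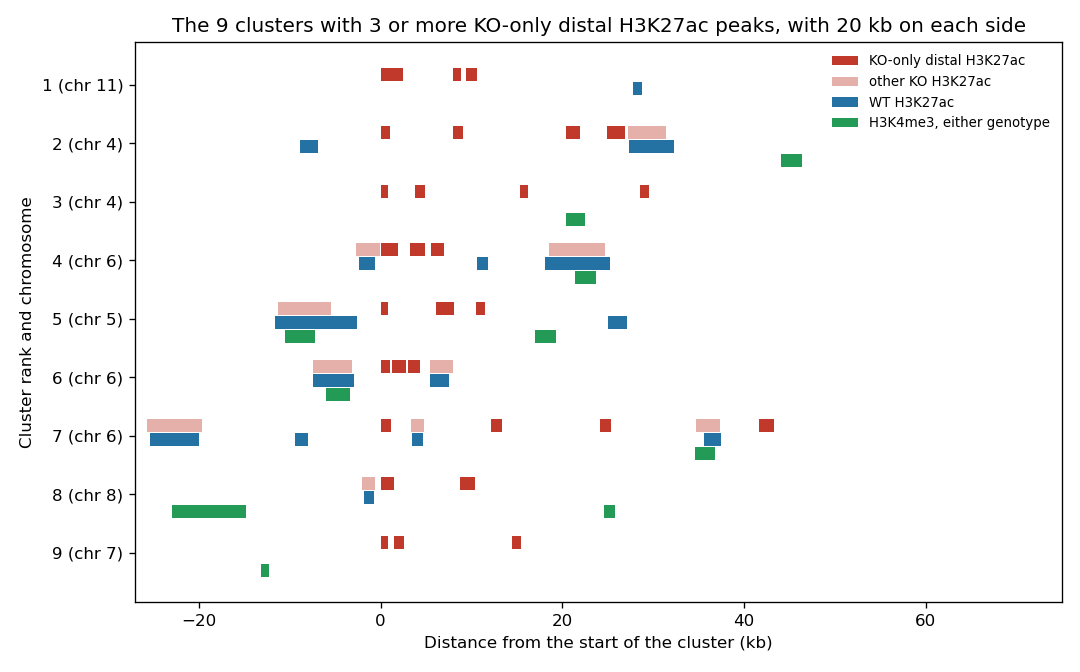
Peaks of the 9 clusters with 3 or more KO-only distal H3K27ac peaks, and of the 20 kb on each side, against the distance from the start of the cluster in kb. The members (dark red) of clusters 2, 4, 5, 6 and 8 stand beside regions that other KO H3K27ac peaks (pale red) and WT H3K27ac peaks (blue) share, cluster 7 encloses one, and clusters 3 and 9 have none beside them. H3K4me3 regions of either genotype are green.

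Over all members, the share with a neighbour that both genotypes had depended on the distance. A KO H3K27ac peak shared with WT lay within 12500 bp of 670 KO-only distal peaks (24.5%, 22.9 to 26.1), within 50 kb of 1409 (51.5%) and within 100 kb of 1869 (68.3%). A WT H3K27ac peak shared with KO lay within 12500 bp of 26.6% (24.7 to 28.6) of WT-only distal peaks. Of the members, 503 (18.4%) had a shared H3K27ac peak on H3K4me3 that near, and 232 (8.48%) a shared distal one. A KO-only H3K27ac peak on H3K4me3 lay within 12500 bp of 77 members (2.82%). KO-only peaks were only 13.3% of the 12244 KO H3K27ac peaks on H3K4me3, so the small count is not a result about the members. WT-only distal peaks lay within 50 kb of 413 members (15.1%, 13.8 to 16.5).

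In windows of 1 Mb the densest gathered up to 10 members. The window at chromosome 7, 83000001 to 84000000, held 10 KO-only, 4 WT-only and 7 shared distal peaks, and 27 KO against 19 WT H3K27ac peaks of all kinds. The window at chromosome 10, 20000001 to 21000000, held 8 KO-only and no WT-only distal peaks, with 18 KO and 10 WT H3K27ac peaks in all. At chromosome 8, 30000001 to 31000000, there were 8 KO-only and 3 WT-only peaks, and at chromosome 2, 44000001 to 45000000, likewise 8 and 3. The fifth, at chromosome 7, 121000001 to 122000000, held 7 of each, so a dense window was not always one of net gain. Of the 1545 windows with a member, 809 also held a WT-only distal peak.

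Some windows had H3K27ac peaks in the KO list alone. Of the 687 windows with 2 or more members, 13 had no H3K27ac peak in the WT list at all. The mirror image, no KO H3K27ac peak, held in 3 of the 470 windows with 2 or more WT-only distal peaks. The fullest of the 13 was at chromosome 4, 96000001 to 97000000, with 5 members and no other KO H3K27ac peak. The windows at chromosome 14, 47000001 to 48000000, and chromosome 5, 103000001 to 104000000, held 3 members each, and so did that at chromosome 2, 66000001 to 67000000, with 4 KO H3K27ac peaks in all. These 4 windows were chosen after their values were seen.

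By chromosome, the KO-only distal peaks followed the large chromosomes. Chromosomes 2, 3, 1, 4 and 6 held 242, 238, 232, 216 and 200 members, 41.2% of all, against 39.4% of all KO distal H3K27ac peaks. KO-only outnumbered WT-only distal peaks on 18 of 22 autosomes, and the interval of the ratio lay above 1 on 11 of them. These counts come from the lists that define the members, so they describe the same excess by chromosome and test nothing. The median ratio of the autosomes was 1.43 and the highest 1.86, on chromosome 21, where 26 KO-only and 14 WT-only peaks gave a wide interval (0.980 to 3.52). Chromosome 8 had 173 KO-only and 97 WT-only peaks, a ratio of 1.78 (1.39 to 2.29).

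The direction was opposite on chromosomes 19 and 17. Chromosome 19 held 15 KO-only and 47 WT-only distal peaks, a ratio of 0.319 (0.180 to 0.566), and chromosome 17 held 51 and 78, a ratio of 0.654 (0.460 to 0.929). Chromosomes 22 (23 and 31) and 20 (38 and 41) were also below 1, with intervals that included 1. Among the upper 50% by score, the ratio on chromosomes 17, 19 and 22 together was 1 (0.310 to 3.23), against 0.571 (0.440 to 0.740) with all peaks. The same cut moved the ratio over all chromosomes from 1.38 to 2.88 (2.08 to 3.98). Chromosomes 17, 19 and 22 thus stayed below it, with a wide interval from few peaks. On chromosome 19, KO-only peaks were 24.2% (15.2 to 36.2) of the 62 KO distal peaks, the lowest share of any chromosome, and none there scored above 92.96. Chromosome X had 51 KO-only and 36 WT-only distal peaks, and KO-only peaks were 32.3% (25.5 to 39.9) of its KO distal peaks. WT-only peaks were 26.1% (19.5 to 34.0) of its WT distal peaks, the lowest such share of any chromosome. A low share there was therefore not particular to the members. The 3 members on chromosome X among the 25 strongest were drawn from only 51.

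**Figure D3:**
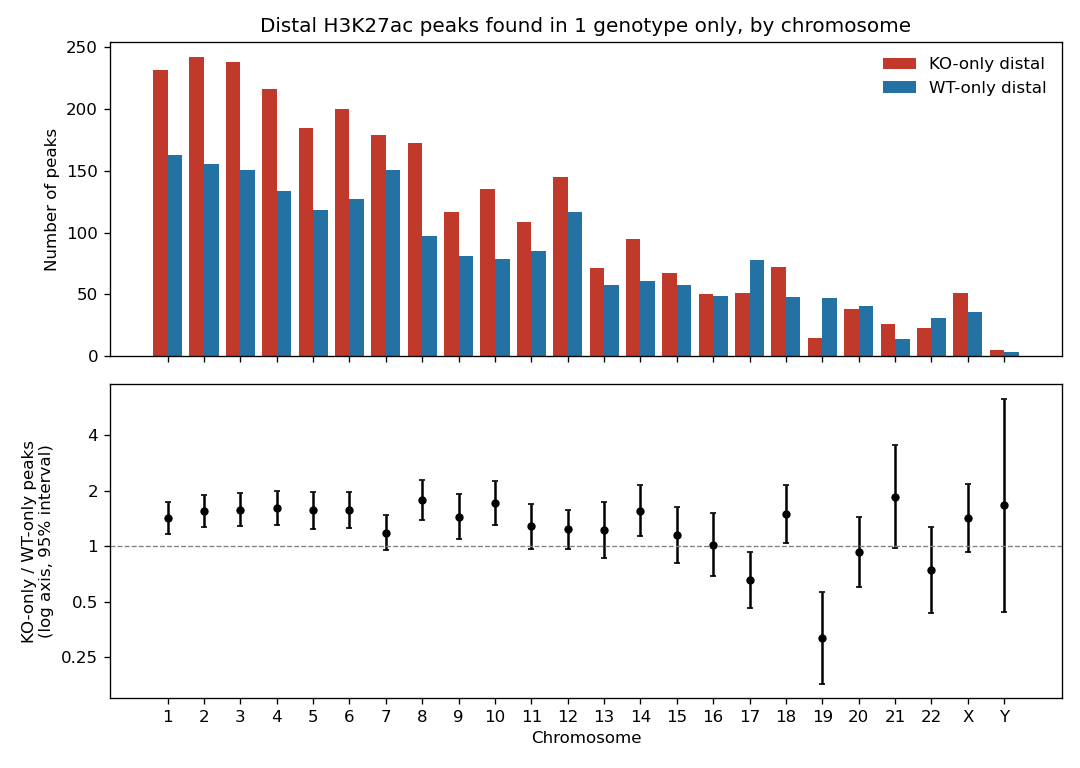
Number of KO-only (red) and WT-only (blue) distal H3K27ac peaks by chromosome, above, and their ratio on a log axis with 95% intervals, below. Chromosomes 17 and 19 have intervals below 1, and 11 of the 22 autosomes have intervals above 1.

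Chromosomes 17, 19 and 22 are rich in genes, and the ratio moved with the number of H3K4me3 regions nearby. Here this number counts the regions of the joined WT and KO H3K4me3 lists within 500 kb of a peak's centre. Members had a median of 9 such regions, against 10 for shared KO distal peaks and 11 for WT-only distal peaks. With 0 to 4 regions nearby, 486 KO-only and 299 WT-only distal peaks gave a ratio of 1.63 (1.41 to 1.88), and with 5 to 9 regions 921 and 490 gave 1.88 (1.68 to 2.10). With 10 to 19 regions the ratio was 1.36 (1.24 to 1.49), from 1103 and 811 peaks. With 20 or more it was 0.587 (0.498 to 0.692), from 225 and 383. WT-only distal peaks were thus the more numerous in the class with most H3K4me3 regions, and KO-only distal peaks in the other 3 classes.

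Within these classes chromosomes 17, 19 and 22 also had the lower ratios, with overlapping intervals. The split uses the counts in which chromosomes 17 and 19 were already low, so it is a description and no separate check. With 20 or more regions nearby, chromosomes 17, 19 and 22 had 39 KO-only and 96 WT-only distal peaks, a ratio of 0.406 (0.281 to 0.588), against 0.648 (0.539 to 0.779) on the other chromosomes. With 10 to 19 regions the ratios were 0.872 (0.576 to 1.32) and 1.39 (1.27 to 1.53).

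The other kinds of peak also had their lowest ratio with 20 or more regions nearby, but took other courses below that. The ratio of KO-only to WT-only H3K27ac peaks on H3K4me3 was 1.46, 1.02, 0.837 and 0.385 from the class with fewest regions to the class with most. For H3K4me3 peaks it was 0.852, 0.735, 0.609 and 0.297. For H3K27me3, the mark of regions held by Polycomb, it was 1.49, 0.582, 0.396 and 0.304, so it was below 1 with 5 to 9 regions, where distal H3K27ac had its highest ratio of 1.88. The ratio of distal H3K27ac was above 1 in 3 of the 4 classes, while that of H3K4me3 was below 1 in all 4. Depth or base composition of the libraries could not be examined in peak lists, and their part in these ratios was not tested.

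**Figure D4:**
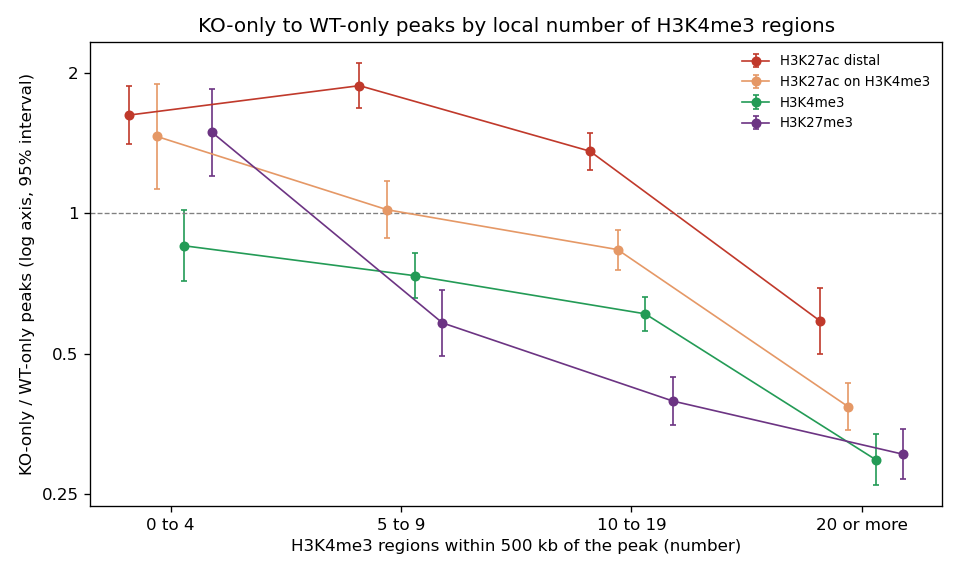
Ratio of KO-only to WT-only peaks (log axis, 95% intervals) by the number of H3K4me3 regions within 500 kb, for distal H3K27ac, H3K27ac on H3K4me3, H3K4me3 and H3K27me3. Distal H3K27ac (red) has the ratio of 0.587 with 20 or more regions, and all 4 kinds are lowest there.

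By distance to the nearest H3K4me3 region, the ratio was highest in the farthest class and stayed above 1 in every class. The median gap was 30.02 kb for KO-only, 28.2 kb for shared and 23.2 kb for WT-only distal peaks. Within 5 kb of H3K4me3 there were 394 KO-only and 330 WT-only peaks, a ratio of 1.19 (1.03 to 1.38), and at 100 kb or more 554 and 311, a ratio of 1.78 (1.55 to 2.05). At 5 to 20, 20 to 50 and 50 to 100 kb it was 1.16, 1.40 and 1.58. The 394 members within 5 kb may include promoter flanks, and the 554 far ones lay well outside any H3K4me3 region.

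FLAG peaks and H3K27me3 played no part in choosing the members. The FLAG library came from KO cells given ZNF263 back, so its peaks show where the ectopic protein was found and not the state of the KO cells whose H3K27ac was mapped. FLAG peaks, from the list that the labels tie to the ectopic ZNF263-FLAG library, lay at 25 members (0.914%, 0.620 to 1.35), against 2.51% (1.97 to 3.18) of shared KO distal peaks, 3.13% (2.45 to 3.99) of WT-only distal peaks and 23.0% of the whole KO H3K27ac list. The share of members was lower by 1.59 points than that of shared distal peaks (Newcombe interval -2.33 to -0.906), and by 2.21 points than that of WT-only distal peaks (-3.12 to -1.41). Members are narrower than shared peaks, and within classes of width the difference from shared peaks was smaller. Between 1 and 2 kb of width it was -0.627 points (-1.58 to 0.154), from 16 of 1829 members and 17 of 1132 shared peaks. At 2 kb or more it was -0.622 points (-2.46 to 2.26), so both intervals included 0. By local H3K4me3 number, a split chosen after seeing the data, it was -2.34 points (-3.65 to -1.21) with 10 to 19 regions nearby. In the other classes of that number the intervals included 0. Among the upper 50% of KO peaks by score the difference had the other sign, 0.194 points (-1.86 to 4.50).

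The difference from WT-only distal peaks, which match the members in width, remained in the class that holds most peaks. Between 1 and 2 kb of width, 16 of 1829 members (0.875%) and 49 of 1379 WT-only distal peaks (3.55%) overlapped a FLAG peak, and members were lower (difference -2.68 points, interval -3.84 to -1.67). Under 1 kb the difference was -0.775 points (-2.22 to 0.151) and at 2 kb or more -2.20 points (-6.78 to 1.46), and both intervals included 0. FLAG peaks also followed the local number of H3K4me3 regions, at 0 of 486 members with 0 to 4 regions nearby and 12 of 225 (5.33%, 3.08 to 9.09) with 20 or more. Against WT-only distal peaks the difference was 0 points (-1.27 to 0.784) with 0 to 4 regions and -0.273 points (-1.57 to 0.604) with 5 to 9. With 10 to 19 regions, 0.725% of members and 2.84% of WT-only distal peaks held one, a difference of -2.11 points (-3.54 to -0.940). With 20 or more the values were 5.33% and 9.14%, and the interval of the difference included 0 (-7.81 to 0.704). A FLAG peak lay within 5 kb of 136 members (4.97%, 4.22 to 5.85), against 201 shared distal peaks (7.75%, 6.79 to 8.85) and 217 WT-only distal peaks (10.9%, 9.64 to 12.4), and these intervals did not overlap. These shares are pooled and were not split by width or local H3K4me3 number, with which the differences above varied.

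**Figure D5:**
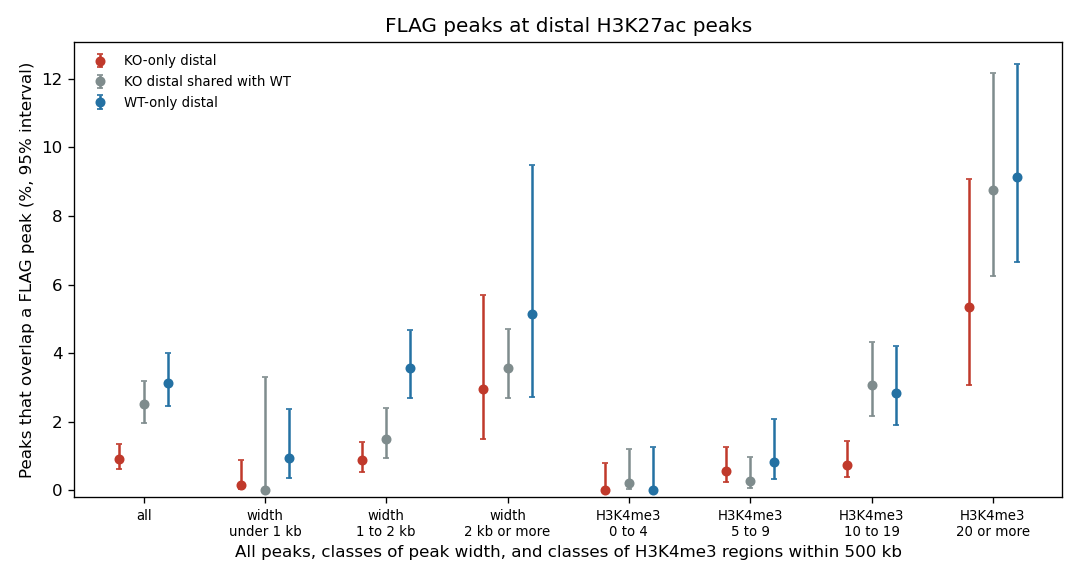
Share of peaks that overlap a FLAG peak, in percent with 95% Wilson intervals, for KO-only (red), shared KO (grey) and WT-only (blue) distal H3K27ac peaks, over all peaks, by peak width and by number of H3K4me3 regions within 500 kb. Members reach 5.33% with 20 or more H3K4me3 regions nearby and are at 0.914% over all.

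The 25 members with a FLAG peak were unlike the rest in place. Chromosomes 19 and 22 held 4 each and chromosome 17 none, so these 3 chromosomes held 8 of the 25 (32%), against 81 of the 2710 others (2.99%). The median number of H3K4me3 regions nearby was 19 for the 25 against 9. The other distal sets varied likewise with local H3K4me3 number, so this was not particular to the members. With 20 or more regions nearby, a FLAG peak lay at 8.76% of shared KO and 9.14% of WT-only distal peaks. With 0 to 4 regions the shares were 0.212% and 0%. The placement by chromosome was not compared with those sets. The median H3K27ac score of the 25 was 53.6 against 53.3 for the other members, and their FLAG peaks scored between 50.8 and 224 in the FLAG list. By H3K27ac score the first was at chromosome 22, 19692513 to 19694221 (score 149), 147 kb from WT H3K27ac. The next were at chromosome 20, 60950071 to 60952783 (score 131), chromosome 8, 142047256 to 142049406 (score 127), and chromosome 2, 42163613 to 42166530 (score 125). Those at chromosome 16, 88828933 to 88831226 and 84593910 to 84595751, had scores of 95.4 and 78.96. At chromosome 19, 35642070 to 35643862 (score 68.4), the FLAG peak was the strongest of the 25 with a score of 224, and an H3K4me3 region lay 0.103 kb away. The rest of the first 10 were at chromosome 5, 153338080 to 153339783, chromosome 22, 17714037 to 17717486, and chromosome 1, 2186423 to 2188582.

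H3K27me3 was almost absent from the members. It overlapped 3 members in KO (0.110%, 0.0373 to 0.322) and 1 in WT (0.0366%, 0.00645 to 0.207), against 4.06% and 5.46% of the whole KO H3K27ac list. Shared KO distal peaks had 5 in each list (0.193%), and the intervals of the differences included 0, from -0.351 to 0.156 points in KO and from -0.416 to 0.0466 in WT. Of the WT-only distal peaks 11 (0.555%) overlapped H3K27me3 in each list, and members were lower by 0.518 points in the WT list (-0.955 to -0.220). No member overlapped H3K27me3 in WT and lacked it in KO. The 3 in KO were at chromosome 16, 24393391 to 24395008 and 9621124 to 9622939, and at chromosome 3, 57160144 to 57161134. The last of these also had the mark in WT. The median gap to KO H3K27me3 was 189 kb for members, 168 kb for shared KO distal peaks and 152 kb for WT-only distal peaks.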

How the data were processed

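The 6 histone peak lists and the FLAG list of H1 cells were used, with groups taken from the sample titles. Bowtie2, Picard and hg19 are named in the submitters' processing notes. The deposited lists have no header and hold, for every peak, its position, a name and the score of the authors' caller, and peak names begin with MACS. No source used here gives the caller's version, the scale of the score, the inputs or any pooling, and the depth is unknown. The names of the H3K27ac lists carry p 1e-4, and their lowest score was 40. The FLAG list is also named by the labels of the endogenous ZNF263 libraries.

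Overlaps of at least 1 bp counted as shared and gaps were measured between edges, with scipy 1.17.1, numpy 2.4.6 and pandas 2.3.3 under python 3.11.15; figures were drawn with matplotlib 3.10.9. The number of KO-only peaks among all 17571 was the one bedtools 2.31.1 gave, and 100% of 3000 simulated gaps and overlaps made from KO H3K27ac peaks were recovered. Shares have Wilson 95% intervals, differences Newcombe intervals, and ratios the Wilson interval of the KO-only share turned into a ratio. The members, lists and tests were chosen with earlier results of these data known. Regions named are the 25 strongest members, the 10 widest, the 10 fullest clusters, the 5 fullest windows of 1 Mb, up to 10 with a FLAG peak, any with H3K27me3 in WT alone and the 3 nearest to each side of the rule. The WT-only distal peaks, the windows without WT H3K27ac, the member nearest to H3K4me3 and the remote members of the closing section lie outside this rule and were chosen after their values were seen. No genome of the build was used, so no sequence is printed, and nearest genes, gene lists and motifs were not analysed here.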

Additional observations from a re-analysis of the deposited data

How the results depend on the processing

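Each of 11 results was recomputed under those of 17 settings that apply to it, which gave 82 values. Of these, 36 moved, 4 reversed and 42 did neither. Keeping the upper 50% of peaks by score, set against the complete other list, kept more shared distal peaks of the KO than of the WT list. It left 141 KO-only and 49 WT-only distal peaks and a ratio of 2.88, which was 1 on chromosomes 17, 19 and 22. There 2.84% of KO-only distal peaks held a FLAG peak, the difference from shared distal peaks turned to 0.194 points (interval -1.86 to 4.50), 0% overlapped H3K27me3 in KO or WT, 0% lay in clusters and 20.6% near a shared peak; few peaks remain by construction. A score of 50 or more in both lists, whose scores may not be on one scale, left 1561 and 1014 peaks, a ratio of 1.54, 5.45% in clusters and 0% with WT H3K27me3. Stitching at 5 and 25 kb put 5.19% and 14.6% of members in clusters, and 12.3% and 36.5% near a shared peak. Merging peaks 3 kb apart gave 4.90% and 17.7%, distal at more than 3 kb 7.81% and 20%, and peaks 1 kb apart counted as shared 21.7% near a shared peak; WT H3K27me3 was 0% in each. An overlap of 50% gave 0.0351% with KO and 0% with WT H3K27me3. FLAG peaks within 1 kb lay at 1.57% of members. The FLAG difference from shared distal peaks was 0.158 points under 1 kb of width, where 1 member and no shared peak held one, -0.627 at 1 to 2 kb and -0.622 above. By local H3K4me3 number, a split chosen after seeing the data, it was -0.212, 0.279, -2.34 and -3.42 points, and the KO-only to WT-only ratio was 1.63, 1.88 and, reversed, 0.587 in the lowest, second and highest class. The cause was not tested. No setting varies depth, which is unknown. No paired analysis was possible because each group compared held 1 library.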

Other observations

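The strongest WT-only distal peaks stood near KO-only ones in some places. The highest of the WT list, at chromosome 3, 112108319 to 112111205 (2887 bp, score 306 in the WT list), had a KO-only distal peak 12.1 kb away and KO H3K27ac 6.35 kb away. The third, at chromosome 9, 80147639 to 80150994, and the KO-only distal peak 48.4 kb from it were each the nearest H3K27ac of the other genotype. The second, at chromosome 20, 1407184 to 1409667, had no KO-only distal peak within 950 kb.

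In the KO H3K4me3 list, 13.4% (12.2 to 14.7) of KO-only distal peaks had a KO-only H3K4me3 peak as their nearest, against 13.3% (12.1 to 14.7) of shared KO distal peaks and 7.30% of the whole KO H3K4me3 list. In the WT H3K4me3 list, the nearest peak was WT-only for 15.5% of WT-only and 16.1% of shared WT distal peaks, against 12.3% of that whole list. The most remote KO-only distal peak, at chromosome 1, 105786019 to 105786992, had no WT H3K27ac within 1186 kb and a score of 44.2. The next, at chromosome 4, 28292712 to 28293618, had none within 1166 kb.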
